A study of Homo sapiens with 5 samples.

Results

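The alpha and beta tubulins are 10 genes, 4 alpha (TUBA1A, TUBA1B, TUBA1C, TUBA4A) and 6 beta (TUBB, TUBB2A, TUBB2B, TUBB3, TUBB4B, formerly TUBB2C, and TUBB6). They were taken by symbol from the array annotation, and all 10 were among the 19775 genes measured. The annotation gave 21 probe sets for them, of 54675 on the array, and 20 of the 21 named a single tubulin gene. The remaining probe set named both TUBB2A and TUBB2B and was assigned to neither. The cells were MDA-MB-231, an established human breast cancer line of mesenchymal appearance. The arrays held total RNA of cells given 2 uM SAHA (suberoylanilide hydroxamic acid, vorinostat, an inhibitor of histone deacetylases; n = 2) and of cells given the vehicle DMSO (n = 3), all collected after 30 h. The extraction text of the labels also mentions a transfection, which no other label describes. Nothing in the labels says that the replicates came from separate cultures, and the p-values therefore speak only of the scatter among these arrays, which may be technical.

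Microtubules are hollow polymers of alpha and beta tubulin dimers, and most human cells make each subunit from several genes whose proteins, called isotypes, differ mainly in their C-terminal tails. Tubulin is the best known substrate of HDAC6, a cytoplasmic deacetylase that SAHA also inhibits, which removes an acetyl group from a lysine of alpha tubulin inside the polymer, while the enzyme ATAT1 adds it. Cells also degrade tubulin mRNAs when free dimers are abundant, through the ribosome-binding factor TTC5. The arrays measured mRNA and say nothing of acetylation or of the amount of polymer.

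Of 4 genes listed as high in this line, VIM averaged 13.85 ± 0.02 in SAHA arrays and 13.97 ± 0.05 in DMSO arrays on the log2 intensity scale (SD, n = 2 and n = 3). AXL and CD44 were also bright, whereas SPARC was dim, at 6.15 in SAHA arrays and 6.14 in DMSO arrays. Of 4 genes listed as low in this line, ESR1 (6.98 in SAHA arrays and 7.01 in DMSO arrays) and PGR were dim. The epithelial gene EPCAM was not, at 9.56 in SAHA arrays and 10.28 in DMSO arrays (limma adjusted p = 0.0102). CDH1, the gene of E-cadherin, averaged 6.31 in SAHA arrays and 4.67 in DMSO arrays, a rise of 1.64 ± 0.15 on the log2 scale (SE; limma adjusted p = 0.00259). Both CDH1 means lay below those of the dim ESR1, so whether CDH1 rose above background is unknown. Arrays of the same group correlated at 0.997 to 0.999 across genes and arrays of different groups at 0.979 to 0.980. The array DMSO 1 stood apart in the RNA integrity control for ACTB, with a log2 difference of 3.29 between the 3' and 5' probe sets, against 2.04 to 2.22 on the other arrays. The 24 probe sets for added bacterial poly-A control RNAs were higher in SAHA arrays by a median of 0.39 on the log2 scale (range 0.17 to 0.66). With each array centred on those controls the median gene lay at -0.40, so directions are given relative to the other genes of the array, as the authors' quantile normalization leaves them. In such bulk samples, fewer cells carrying a transcript and less of it per cell cannot be told apart.

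Tubulin genes moved in both directions in SAHA arrays. TUBA4A, TUBA1A and TUBB2A rose 1.47-fold, 1.36-fold and 1.2-fold relative to the other genes of the array, although with centring on the poly-A controls TUBB2A lay at -0.11. TUBB6, TUBA1B and TUBA1C fell 1.54-fold, 1.32-fold and 1.28-fold. Only TUBA4A, TUBB2A and TUBB6 were read from probe sets not named for shared sequence. Whether the TUBA1A rise belongs to that gene alone, and whether the falls of TUBA1B and TUBA1C are separate, was not tested. TUBB, TUBB4B, TUBB3 and TUBB2B did not pass the test. After poly-A centring, which moves every gene by the same amount, all 4 passed as lower. The error of that offset is shared by every gene of an array, and the p-values after centring do not cover it. In all, 6 of the 10 passed (3 higher, 3 lower) at an adjusted p under 0.05 by limma, where 29.6% of all genes did (14% higher and 15.6% lower). The members' median log2 fold was -0.05, against -0.03 for all genes. The 2 groups did not overlap for 8 of the 10 tubulins, and for 48.1% of all genes.

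Among the alpha genes, TUBA1A, the main alpha isotype of developing neurons, had log2 intensities of 13.73 and 13.60 in SAHA arrays, against 13.31, 13.22 and 13.12 in DMSO arrays. TUBA1A has only 1 probe set, named for shared sequence, and its lower SAHA array was above its highest DMSO array. Its log2 fold was 0.45 ± 0.08 (SE; limma adjusted p = 0.0144). TUBA4A, an alpha isotype whose gene encodes no C-terminal tyrosine, read 11.72 and 11.80 in SAHA arrays, against 11.34, 11.12 and 11.17 in DMSO arrays. The groups were apart there too, by 0.55 ± 0.08 on the log2 scale (SE; limma adjusted p = 0.00923). Centred on the poly-A controls, the folds were 0.07 for TUBA1A and 0.18 for TUBA4A, and neither passed (adjusted p = 0.588 and 0.182).

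TUBA1B, an alpha isotype made in nearly all cells, read 14.34 and 14.46 in SAHA arrays, against 14.76, 14.81 and 14.84 in DMSO arrays. TUBA1C, its close relative, read 14.37 and 14.46 in SAHA arrays, against 14.81, 14.73 and 14.77 in DMSO arrays. For both genes each SAHA array lay below each DMSO array, and the groups were separated by more than the spread within either. The log2 folds were -0.40 ± 0.06 and -0.35 ± 0.05 (SE; limma adjusted p = 0.00837 and 0.00758). These probe sets were near the top of the intensity range, with 0.126% and 0.13% of probe sets brighter, and any loss of range there was not tested.

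The TUBA1 genes neighbour each other on chromosome 12. In the RefSeq annotation TUBA1A lies between TUBA1B and TUBA1C, with 1 annotated gene between it and TUBA1B and 0 between it and TUBA1C. Promoter windows of the 4 genes that changed and have a single start in the RefSeq table (build GRCh38.p14, 250 bases before to 50 after the start, on the gene's strand, 5' to 3') are printed so that the starts of genes that rose and fell can be set side by side. They are chr12:49189031-49189330 for TUBA1A, chr12:49131346-49131645 for TUBA1B, chr2:219253869-219254168 for TUBA4A and chr6:3157495-3157794 for TUBB2A, all on the minus strand. Capitals mark CCAAT and GGGCGG on either strand, and TATA on the gene's strand where it starts 40 to 20 bases before the start of transcription. The motifs were picked with the sequences in view.
TUBA1A: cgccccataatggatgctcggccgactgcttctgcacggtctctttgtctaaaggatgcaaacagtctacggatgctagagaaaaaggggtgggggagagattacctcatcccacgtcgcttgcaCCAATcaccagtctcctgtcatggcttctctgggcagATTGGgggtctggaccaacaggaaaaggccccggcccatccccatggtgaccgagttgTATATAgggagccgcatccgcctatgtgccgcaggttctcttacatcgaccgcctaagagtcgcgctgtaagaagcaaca
TUBA1B: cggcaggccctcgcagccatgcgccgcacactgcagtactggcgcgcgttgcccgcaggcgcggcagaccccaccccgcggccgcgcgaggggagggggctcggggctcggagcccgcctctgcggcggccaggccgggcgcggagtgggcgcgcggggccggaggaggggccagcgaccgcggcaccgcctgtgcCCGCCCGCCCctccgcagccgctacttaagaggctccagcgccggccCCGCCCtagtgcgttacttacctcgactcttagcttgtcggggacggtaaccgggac
TUBA4A: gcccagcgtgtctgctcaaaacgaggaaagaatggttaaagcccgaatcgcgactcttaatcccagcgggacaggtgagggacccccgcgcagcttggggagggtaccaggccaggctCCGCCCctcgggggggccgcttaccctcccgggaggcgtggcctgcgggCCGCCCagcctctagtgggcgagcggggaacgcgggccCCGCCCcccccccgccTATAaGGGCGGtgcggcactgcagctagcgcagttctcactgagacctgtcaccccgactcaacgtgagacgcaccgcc
TUBB2A: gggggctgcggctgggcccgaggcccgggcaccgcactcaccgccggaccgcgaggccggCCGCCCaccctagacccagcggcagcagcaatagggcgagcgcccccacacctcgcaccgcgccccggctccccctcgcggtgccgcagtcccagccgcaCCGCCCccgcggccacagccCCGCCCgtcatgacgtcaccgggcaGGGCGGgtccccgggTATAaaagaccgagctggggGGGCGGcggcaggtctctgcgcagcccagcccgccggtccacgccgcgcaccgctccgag
TUBA1A had 2 CCAAT matches and no GGGCGG, and its TATA began 30 bases before the start. TUBA1B had 3 GGGCGG matches, of which a pair overlap, and neither of the other motifs. TUBA4A and TUBB2A had 4 and 5 GGGCGG matches, with TATA beginning 29 bases before the start in TUBA4A and 30 in TUBB2A. Over all 35116 windows of the table, 34.6% held CCAAT, 45% held GGGCGG and 6.17% held TATA in that position. Of the 15 windows of the 10 tubulin genes, 9, 9 and 6 held them, and windows of 1 gene can overlap. The 6 genes with TATA were TUBA1A, TUBA4A and TUBB2A, which rose, TUBA1C, which fell, and TUBB3 and TUBB4B, which were not called. A match shows only that these letters are in the window.

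Among the beta genes, TUBB6, a beta isotype found in many tissues, had the tubulins' widest separation. It read 11.91 and 11.95 in SAHA arrays, against 12.52, 12.56 and 12.58 in DMSO arrays, and the gap between groups was wider than the spread within either. The log2 fold was -0.62 ± 0.04 (SE; limma adjusted p = 0.00116). TUBB2A, a beta isotype best known from brain, read 13.07 and 13.03 in SAHA arrays, against 12.85, 12.77 and 12.76 in DMSO arrays. It lay above all DMSO arrays, with a difference of 0.26 ± 0.05 on the log2 scale (SE; limma adjusted p = 0.017), which became -0.11 (adjusted p = 0.376) with centring on the poly-A controls.

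TUBB, the common beta isotype of dividing cells, read 13.93 and 13.95 in SAHA arrays, against 13.98, 14.12 and 14.14 in DMSO arrays. TUBB4B, another beta isotype of most cells and of cilia, read 13.51 and 13.45 in SAHA arrays, against 13.58, 13.56 and 13.60 in DMSO arrays. In both genes the SAHA arrays were the lowest, by small margins, and neither passed the test. The log2 fold was -0.14 (95% interval -0.31 to 0.03; limma adjusted p = 0.201) for TUBB and -0.10 (-0.21 to 0.01; adjusted p = 0.17) for TUBB4B, so a fall of the size seen for TUBB6 lay outside both intervals. Centred on the poly-A controls, TUBB was at -0.51 and TUBB4B at -0.47, and both passed as lower (adjusted p = 0.000266 and 0.00075). These p-values leave out the uncertainty of the offset, which all genes share. In TUBB the nearest DMSO array was DMSO 1, and without it the fold was -0.19 (adjusted p = 0.0519).

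TUBB3 and TUBB2B did not pass the test. TUBB3, used as a marker of neurons, read 12.60 and 12.66 in SAHA arrays, against 12.46, 12.71 and 12.74 in DMSO arrays, and the groups overlapped. Its log2 fold was -0.0042 (95% interval -0.27 to 0.26; limma adjusted p = 0.99), and DMSO 1 held the lowest value. After poly-A centring it was at -0.38 and passed as lower (adjusted p = 0.00451, which leaves out the uncertainty of the shared offset). TUBB2B read 6.58 and 6.31 in SAHA arrays, against 6.53, 6.43 and 6.14 in DMSO arrays, with 51.9% of probe sets brighter. It was dim on every array, and its interval was wide (log2 fold 0.08, 95% interval -0.32 to 0.47; adjusted p = 0.74). After poly-A centring it was at -0.30 (adjusted p = 0.0387, with the same limit).

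**Figure D1:**
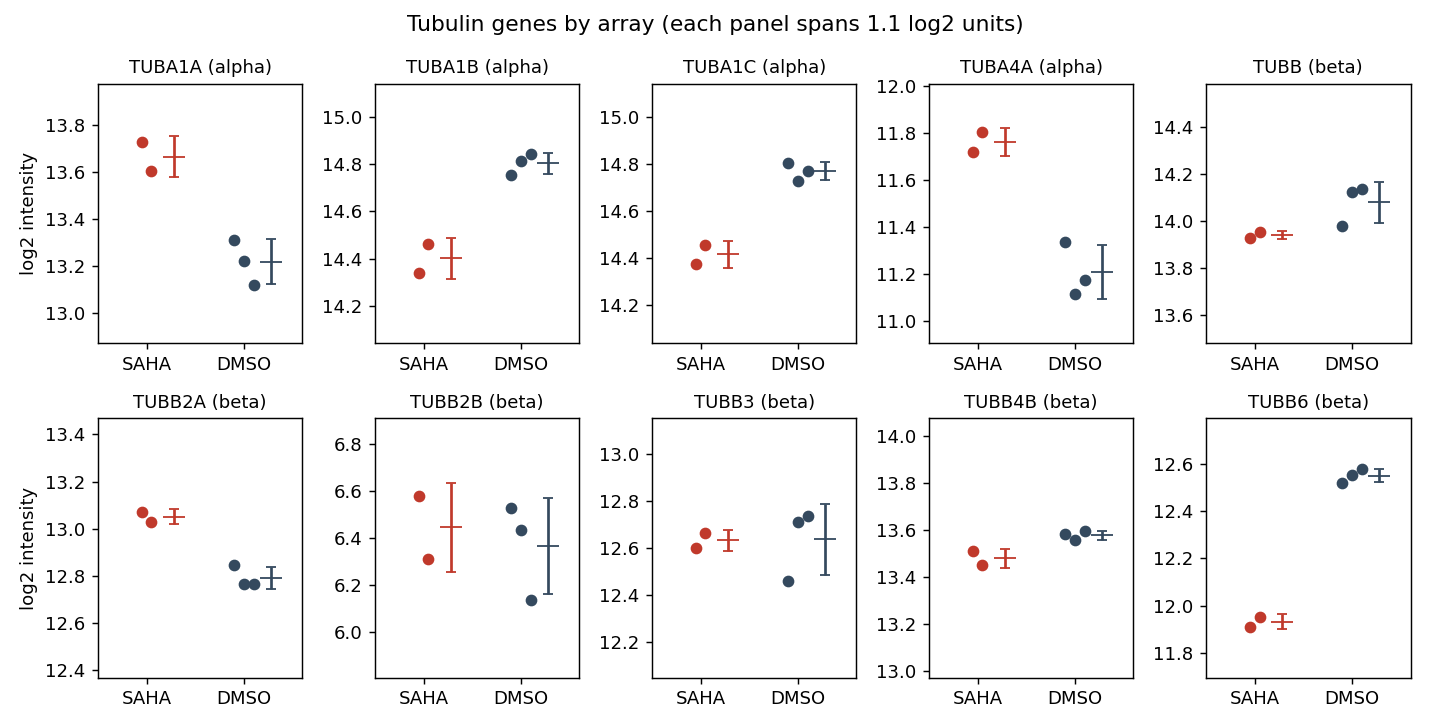
Log2 intensity of the brightest probe set of each tubulin gene, SAHA arrays (red, n = 2) left and DMSO arrays (dark, n = 3) right, points for arrays and bars for mean and SD; every panel spans the same range. The SAHA arrays lie above all DMSO arrays for TUBA1A, TUBA4A and TUBB2A (TUBB2A turns to -0.11 with centring on the poly-A controls) and below them for TUBA1B, TUBA1C, TUBB, TUBB4B and TUBB6.

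Tubulin genes share much of their coding sequence, and 15 of the 20 single-gene probe sets carry names that mark sequence shared between transcripts (ending in _x_at or _s_at). Each probe set was therefore also tested on its own, across all 54613 probe sets other than array controls. Of the 20, 11 were called (3 higher, 8 lower), where 18.1% of all probe sets were (9.01% higher and 9.05% lower). Where a gene had more than 1 probe set, their readings are repeats of the same or related transcripts, not replicates.

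TUBA1B had 6 probe sets, of which 5 were called lower, at log2 folds of -0.45 to -0.40. The sixth was dim, with the same value of 4.23 on SAHA 2 and all 3 DMSO arrays and 4.05 on SAHA 1 (log2 fold -0.09, adjusted p = 0.417). Both TUBA1C probe sets were called lower, at -0.35. Every called probe set of TUBA1B and TUBA1C ends in _x_at, so the falls of these genes may not be separate readings. The 3 of TUBB ran from -0.19 to -0.13, the 2 of TUBB4B from -0.11 to -0.10 and the 2 of TUBB3 from -0.0042 to 0.06, and none of these 7 was called. Only TUBA1B and TUBA1C had more than 1 probe set called, all lower, so the absence of opposite calls says little about agreement between probe sets. The probe set named for both TUBB2A and TUBB2B had a log2 fold of 0.18 (limma adjusted p = 0.343). Without shared-sequence probe sets 5 tubulins remained, TUBA1A and TUBA1C among those left out, and TUBA1B rested on its dim probe set. TUBA4A, TUBB2A and TUBB6, which each have 1 probe set without that mark, gave the same folds.

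**Figure D2:**
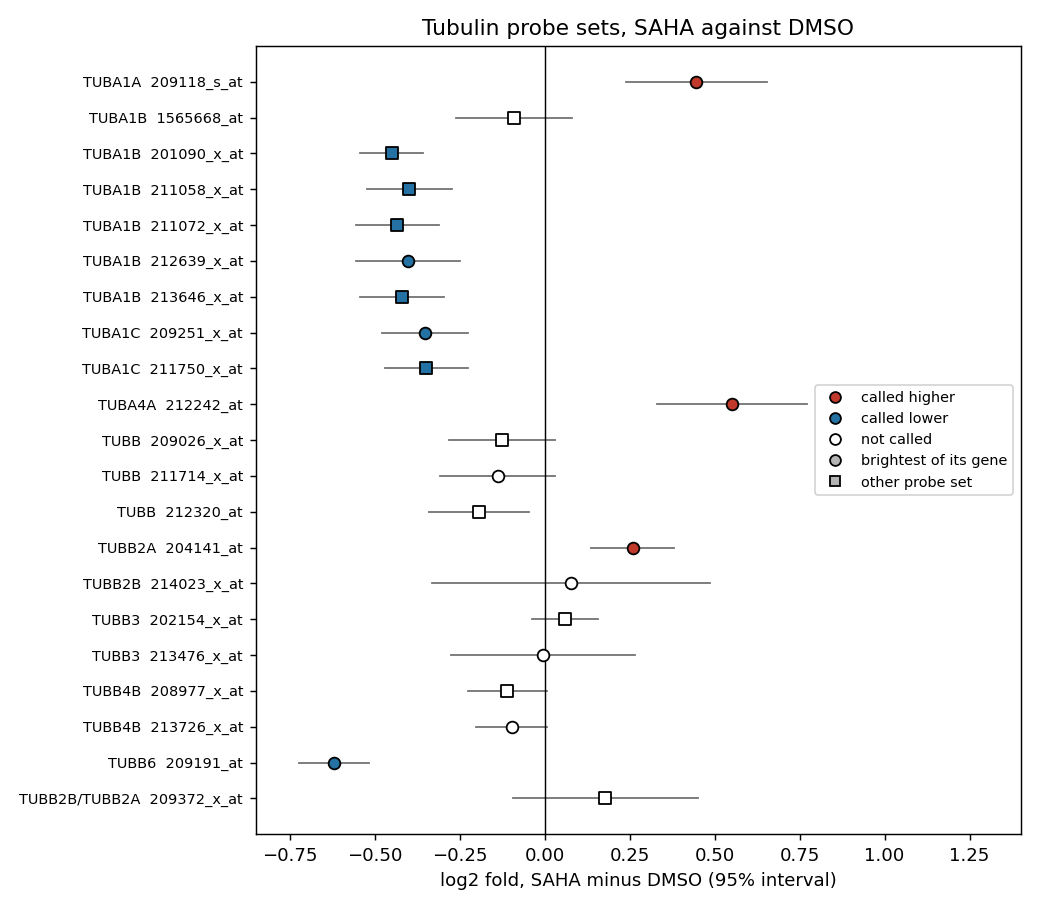
Log2 fold of each of the 21 tubulin probe sets with its 95% interval from limma over all probe sets, filled red or blue where called higher or lower; circles mark the brightest probe set of a gene and squares the others. The 5 bright TUBA1B and 2 TUBA1C probe sets lie at -0.45 to -0.35, opposite to TUBA1A at 0.45. With centring on the poly-A controls no tubulin probe set was called higher.

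A call in one tubulin and none in another does not show that they differ, so each gene was also tested against the mean of the 10, subtracted array by array. This removes any scaling of the whole array, the poly-A offset included. The mean itself averaged 12.57 ± 0.0049 in SAHA arrays and 12.60 ± 0.0137 in DMSO arrays (SD, n = 2 and n = 3), a difference of -0.03 (exact permutation test over arrays, two-sided, p = 0.2, where 0.1 is the smallest that 2 against 3 arrays can give). Against it, 6 of the 10 were called and 31.5% of all genes. TUBA4A (0.58 ± 0.08), TUBA1A (0.47 ± 0.08) and TUBB2A (0.29 ± 0.06) gained on the mean, and TUBB6 (-0.59 ± 0.06), TUBA1B (-0.37 ± 0.07) and TUBA1C (-0.32 ± 0.06) lost (SE; limma adjusted p = 0.000751 to 0.0122). Each member is part of the mean it is set against.

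Both families held genes called in each direction. The alpha mean differed by 0.06 and the beta mean by -0.09. Alpha minus beta was 1.61 and 1.69 in SAHA arrays, against 1.57, 1.45 and 1.49 in DMSO arrays, a change of 0.15 (exact permutation test, two-sided, p = 0.2), with the SAHA arrays above all DMSO arrays. Without shared-sequence probe sets, when the alpha mean rests on TUBA4A and the dim TUBA1B probe set, the change was 0.42 (exact permutation p = 0.1). The exact test cannot go below 0.1 in this design. Intensities of different probe sets cannot be summed into isotype shares, so only the changes are compared.

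The lower calls held when any array was left out, and the higher calls did not. Without SAHA 1 or SAHA 2, 0 tubulins were called higher, and without DMSO 2 or DMSO 3, 1 was (TUBA4A and TUBA1A in turn), with adjusted p-values of 0.0509 to 0.0969 for the calls lost. Over all 5 such fits the log2 folds were 0.38 to 0.51 for TUBA1A, 0.50 to 0.62 for TUBA4A and 0.24 to 0.29 for TUBB2A. Without DMSO 1, all 3 passed. Higher calls over all genes also dropped, from 2760 with all arrays to 1834 without DMSO 2 and 1769 without DMSO 3. Against the tubulin mean, 3 were called lower and 2 to 3 higher with each array left out, TUBB2A missing without DMSO 2 (adjusted p = 0.05).

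**Figure D3:**
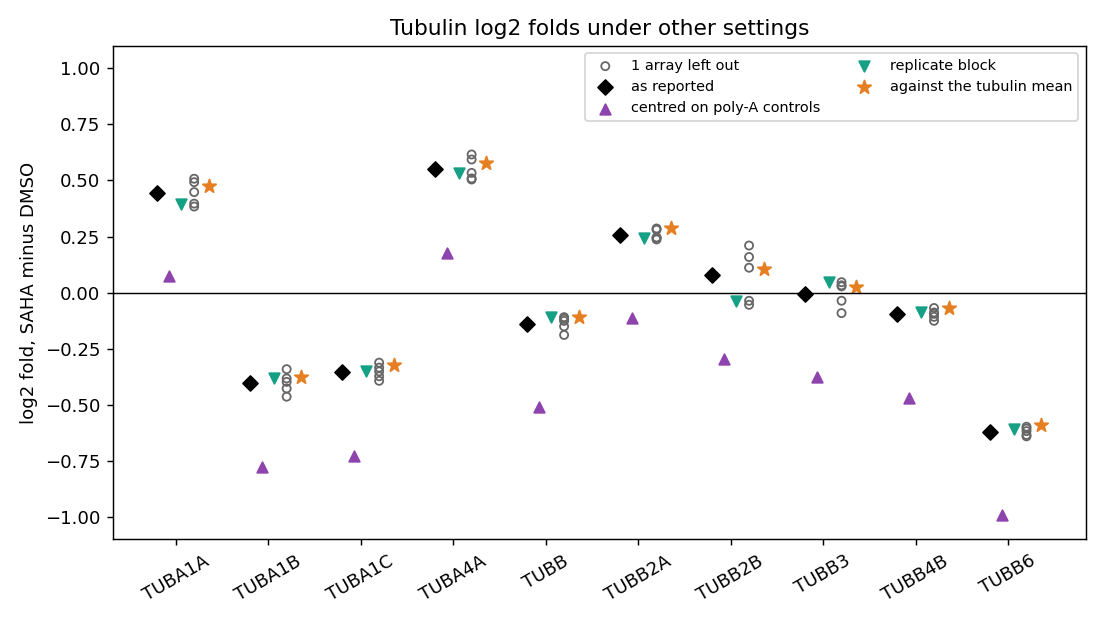
Log2 fold of each tubulin gene as reported (diamonds), with each array left out (open circles), with the replicate number as a block (green), centred on the poly-A controls (purple) and against the tubulin mean (stars). TUBA1A and TUBA4A stay above 0 and TUBA1B, TUBA1C and TUBB6 below 0 in every setting drawn, while TUBB2A is at -0.11 after poly-A centring.

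Other microtubule genes were read in 8 lists, and among the genes named from them the higher calls of TUBG2, TUBD1, TTC5, TTLL1, SLAIN2 and FIGNL1 ended when arrays were centred on the poly-A controls. That centring gave more lower calls in each of the 8 lists. Over all genes 29.6% were called, 14% higher and 15.6% lower. Of the other tubulins 8 of 12 were measured, and 3 passed the test, all higher (1 without DMSO 2 or DMSO 3). TUBAL3, an alpha-like tubulin, read 8.06 and 8.26 in SAHA arrays, against 6.92, 7.03 and 6.76 in DMSO arrays, a difference of 1.26 ± 0.11 on the log2 scale (SE; limma adjusted p = 0.00203). Its DMSO arrays were about the level of the dim ESR1, so the size of the rise is uncertain. TUBG2, a gamma tubulin of the microtubule nucleator, rose by 0.46 ± 0.08 (SE; adjusted p = 0.0166) and TUBD1, the delta tubulin of centrioles, by 0.32 ± 0.08 (SE; adjusted p = 0.0449). Both calls were fragile, since TUBG2 lost its call without DMSO 1, DMSO 2 or DMSO 3 and TUBD1 without SAHA 1, SAHA 2, DMSO 2 or DMSO 3, and TUBD1 lay at -0.05 after poly-A centring.

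The gamma-tubulin ring complex, which seeds new microtubules, had 6 of 11 measured members that fell and 1 (TUBG2) that rose, where 15.6% and 14% of all genes did. The median log2 fold was -0.39, against -0.03 for all genes, but it was -0.19 with probe sets averaged and -0.071 without shared-sequence probe sets. TUBGCP3 read 9.35 and 9.12 in SAHA arrays, against 10.71, 10.65 and 10.59 in DMSO arrays, and fell by 1.42 ± 0.08 on the log2 scale (SE; limma adjusted p = 0.000987). TUBGCP5 fell by 1.20 ± 0.06 and TUBGCP4 by 0.54 ± 0.07 (SE; adjusted p = 0.000763 and 0.00758). These 3 are core subunits of the ring. CDK5RAP2, which anchors and activates it at centrosomes, fell by 0.98 ± 0.09 (SE; adjusted p = 0.00219). TUBGCP5 averaged 6.35 in SAHA arrays, a dim level, and 7.55 in DMSO arrays, so the size of its fall is uncertain. Without shared-sequence probe sets, 3 of the list fell. Sizes rested on the probe set: with probe sets averaged TUBGCP3 gave -0.59 and CDK5RAP2 -0.51, and without shared-sequence probe sets TUBGCP5 gave -0.56 and CDK5RAP2 -0.05 (adjusted p = 0.734). TUBGCP4 was not called without SAHA 1 (adjusted p = 0.0582).

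Genes that act on tubulin acetylation were measured for all 3 listed. HDAC6 read 9.25 and 9.33 in SAHA arrays, against 9.63, 9.93 and 9.83 in DMSO arrays, a difference of -0.51 ± 0.10 on the log2 scale (SE; limma adjusted p = 0.022). Its call ended without SAHA 1, SAHA 2, DMSO 2 or DMSO 3 (adjusted p up to 0.147). The acetyltransferase gene ATAT1 was at -0.29 (95% interval -0.52 to -0.06; adjusted p = 0.0702), and its other readings were lower, -0.50 with probe sets averaged (adjusted p = 0.0245) and -0.71 without shared-sequence probe sets (0.0345). SIRT2, a further tubulin deacetylase, was at 0.11 (-0.03 to 0.26; adjusted p = 0.223), and at -0.26 after poly-A centring.

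Of 23 enzymes and cofactors that trim or extend the C-terminal tails, 4 rose (2 without SAHA 1, DMSO 1 or DMSO 2) and 3 fell, a share near the 29.6% of all genes called, with a median of -0.03. AGTPBP1, which removes glutamates from tubulin tails, read 11.41 and 11.11 in SAHA arrays, against 9.94, 9.99 and 9.86 in DMSO arrays, a difference of 1.33 ± 0.11 on the log2 scale (SE; limma adjusted p = 0.0017). It gave 0.74 without shared-sequence probe sets. TTLL1, a glutamate ligase, rose by 0.46 ± 0.06, the glycine ligase TTLL3 fell by 0.68 ± 0.09, and SVBP, the partner of the tyrosine-removing vasohibins, fell by 0.44 ± 0.06 (SE; adjusted p = 0.00697 to 0.00894). TTLL1 averaged 6.99 in DMSO arrays and TTLL3 7.10 in SAHA arrays, about the level of the dim ESR1, so the sizes of both changes are uncertain. TTLL3 gave -0.24 with probe sets averaged. TTLL3 and SVBP lost their calls without SAHA 1 (adjusted p = 0.0641 and 0.0702).

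Of 19 folding factors measured, 2 passed the test, both lower, where 29.6% of all genes passed and 15.6% were lower. The median over the list was 0.03. VBP1, a prefoldin subunit that hands new tubulin to the chaperonin, fell by 0.57 ± 0.04 and CCT5, a chaperonin subunit, by 0.43 ± 0.05 (SE; limma adjusted p = 0.00144 and 0.00605, and 0.0502 for CCT5 without SAHA 1). Of the 5 genes of tubulin mRNA autoregulation, 1 passed the test. That was TTC5, which binds new tubulin chains at the ribosome, at 8.24 and 8.14 in SAHA arrays, against 7.59, 7.76 and 7.74 in DMSO arrays. Its log2 fold was 0.50 ± 0.07 (SE; limma adjusted p = 0.00887, and 0.0728 without SAHA 1).

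Proteins that bind the microtubule lattice or free dimers included the widest change of these lists. Of 22 stathmins and microtubule-associated proteins, 6 rose and 2 fell, where 14% and 15.6% of all genes did, with a median of 0.07. Without SAHA 1, 3 rose, and without shared-sequence probe sets 1 fell. MAP2, a lattice-binding protein of dendrites, read 10.61 and 10.36 in SAHA arrays, against 8.18, 8.08 and 8.23 in DMSO arrays, a 5-fold rise (log2 fold 2.32 ± 0.09, SE; limma adjusted p = 0.000554). With probe sets averaged it gave 1.76. MAP7D3 rose by 0.96 ± 0.07, DCLK1, a doublecortin-like kinase, by 0.93 ± 0.08 and MAPT, the gene of tau, by 0.93 ± 0.12 (SE; adjusted p = 0.00126 to 0.00617). DCLK1 gave 0.27 with probe sets averaged, and MAPT gave 0.64, or 0.61 without shared-sequence probe sets. MAPT was not called without SAHA 1 or SAHA 2 (adjusted p = 0.0722 and 0.0559). The 2 that fell were stathmins, which sequester tubulin dimers and were named after their values were seen: STMN3 fell by 0.91 ± 0.05 and STMN1 by 0.81 ± 0.07 (SE; adjusted p = 0.000763 and 0.00246).

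Of 20 plus-end and severing proteins, 3 rose and 4 fell, near the share of all genes called, with a median of 0.0039. MAPRE2, an end-binding protein, read 11.28 and 11.18 in SAHA arrays, against 9.62, 9.51 and 9.57 in DMSO arrays, and rose 3.18-fold (log2 fold 1.67 ± 0.06, SE; limma adjusted p = 0.000491; 1.11 with probe sets averaged). SLAIN2, a plus-end growth factor, rose by 0.62 ± 0.11 and FIGNL1, a relative of the severing enzyme fidgetin, by 0.61 ± 0.05 (SE; adjusted p = 0.0133 and 0.00211). TACC3, a spindle protein, fell by 0.89 ± 0.05 (SE; adjusted p = 0.001). SLAIN2 lost its call without SAHA 1, DMSO 1 or DMSO 3 (adjusted p = 0.0559 to 0.0704). Without DMSO 3, or without shared-sequence probe sets, 2 of this list fell.

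**Figure D4:**
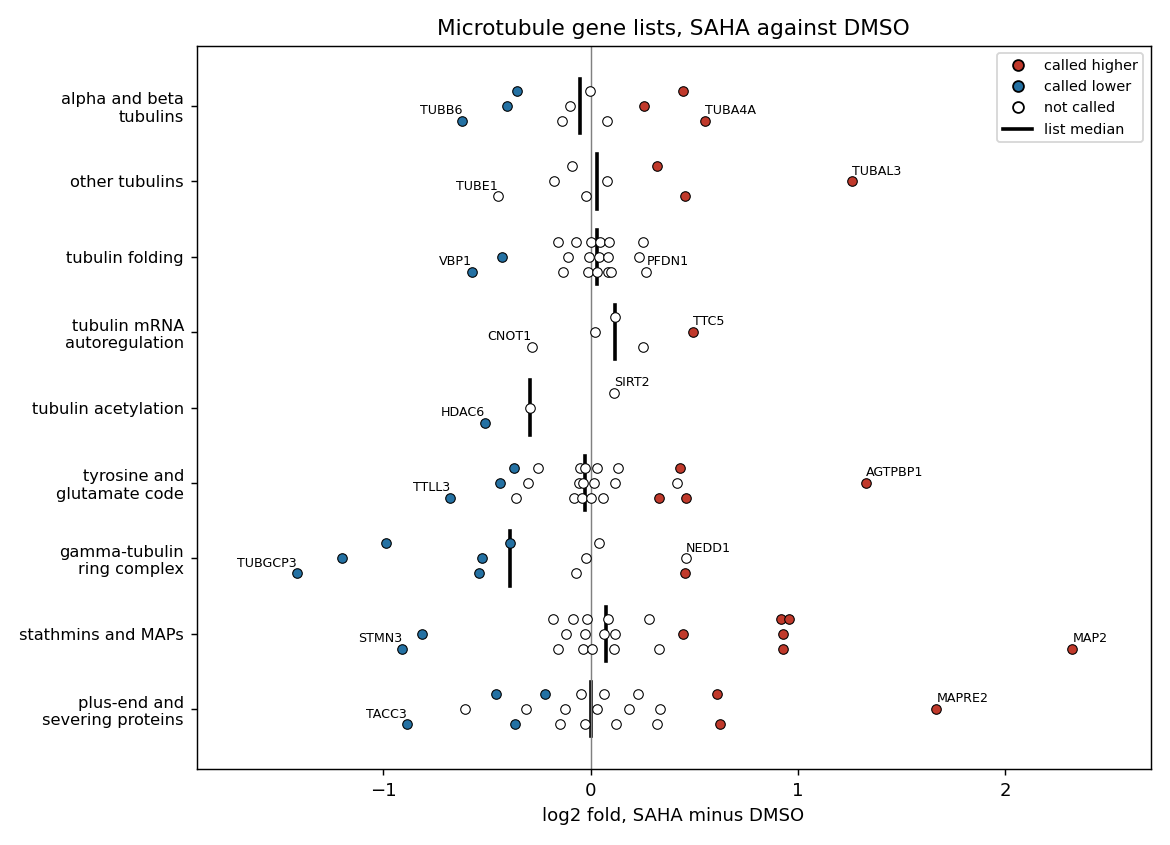
Log2 fold of each gene in the tubulin set and in 8 lists of microtubule genes, red where called higher, blue where called lower and open where not called, with a bar at each list's median. The median of the gamma-tubulin ring complex is -0.39 with the brightest probe sets plotted here (-0.19 with probe sets averaged, where the acetylation genes are at -0.41), MAP2 (2.32) is the highest point, and the tubulins themselves lie between -0.62 and 0.55. TUBB2A and TUBD1 move below 0 when arrays are centred on the poly-A controls.

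Since several tubulins and MAP2 are used in neurons, a list of 8 neuronal genes was read beside them. MAP2 and SYP were called higher (SYP by 0.19 ± 0.05, SE; limma adjusted p = 0.0453). SNAP25, STMN2, ELAVL4, NEFL, RBFOX3 and DCX were not, at log2 folds of -0.09 to 0.09. The summed intensity of the 8 genes was 1874 to 2096 in SAHA arrays, against 804.8 to 812.4 in DMSO arrays. The sum mixes probe sets of unequal response, with MAP2 at a log2 fold of 2.32 and a median of 0.02 over the 8 genes. It therefore does not show a rise of the list as a whole. The sum is given only by array, and the part of these genes in the tubulin changes was not tested. The 3 endothelial markers had log2 folds of -0.05 to 0.13 and summed intensities of 290.8 to 309 in SAHA arrays, against 273.4 to 301.8 in DMSO arrays. Of 3 leukocyte markers CD14 was higher and PTPRC lower, with summed intensities of 348.7 to 349 in SAHA arrays, against 250.5 to 279.1 in DMSO arrays.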

How the data were processed

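Total RNA of 5 single-colour oligonucleotide arrays was compared, 2 of SAHA-treated and 3 of DMSO-treated MDA-MB-231 cells, grouped by their titles. The deposited values are intensities on a linear scale, made by the authors with RMA in R 2.12 per the submitters' processing notes. RMA corrects background, normalizes quantiles and summarises probes, so a shift of all transcripts one way is removed. No detection calls came with the values, so signal over background is unknown. The number of arrays limits the precision. Log2 was taken and nothing was normalized again.

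Of 54675 probe sets, 62 were array controls, 41091 named 1 gene, 1801 several and 11721 none in the annotation used. Symbols were updated through gene identifiers. Each gene was read from its brightest probe set (mean over all 5 arrays). SAHA was compared with DMSO in limma 3.58.1 (R 4.3.3; lmFit, eBayes, two-sided, no covariates), with Benjamini-Hochberg adjustment over all genes, over all probe sets in the separate probe set test, and a threshold of 0.05. Listed genes absent from the single-gene probe sets were not analysed here. The text names every member, the called genes of each list with the widest log2 fold, at most 4 a list, HDAC6, SIRT2, ATAT1 and TTC5, and, chosen after their values were seen, STMN1 and STMN3. Marker genes were named for their role. The members and lists were chosen with earlier results of these data known. The fits were run on simulated independent noise with added shifts, which held no poly-A offset and no shared probe sequence. Promoter windows are RefSeq's. Figures were drawn with matplotlib 3.10.9.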

Additional observations from a re-analysis of the deposited data

How the results depend on the processing

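Only 5 arrays and the absence of detection calls limit what can be told, above all for the dim TUBB2B. TUBB6 kept its call in all 18 alternatives, TUBA1C in all but the replicate block of the 17 that measured it, and TUBA1B in all but the block and its dim probe set. Centred on the poly-A controls, 0 tubulins passed as higher and 7 as lower (1380 and 14740 of all genes; 0 and 16 tubulin probe sets). These counts do not allow for the error of the offset, which all genes share. TUBB2A (-0.11), TUBB2B (-0.30), TUBD1 (-0.051) and SIRT2 (-0.26) changed sign under this centring. Without shared-sequence probe sets 1 tubulin was lower, also against the tubulin mean, and SIRT2 was at -0.012; with probe sets averaged TUBB3 was at 0.028. At a threshold of 0.01, 1 tubulin was higher (1544 and 1773 of all genes higher and lower; 0 and 5 tubulin probe sets), and without variance moderation 1 was (1538 and 1831).

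The replicate numbers are shared by 2 pairs of arrays, whose deviations correlated at 0.15 and -0.07, against 0.07 and -0.15 for the mismatched pairs. With only 2 SAHA arrays these values mirror each other, so they cannot decide whether the arrays are paired. The labels state no pairing, and none was assumed. With the replicate number as a block, 0 tubulins passed as higher and 1 as lower (1262 and 1316 of all genes; 0 and 0 tubulin probe sets), TUBB2B was at -0.036, or -0.0011 against the tubulin mean, and TUBB3 at 0.046. This fit leaves DMSO 3 without a partner.

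Leaving out 1 array at a time gave 0 to 3 tubulins higher and 3 lower, 1769 to 2234 and 1985 to 2797 of all genes, 0 to 3 and 4 to 9 tubulin probe sets, and 0.11 to 0.19 for alpha minus beta. TUBB2B ranged from -0.054 to 0.21 and TUBB3 from -0.091 to 0.046, and against the tubulin mean TUBB2B ranged from -0.023 to 0.23 and TUBB3 from -0.070 to 0.082. A lone SAHA array is assumed to vary like the DMSO arrays. The causes were not tested.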
